A study of Homo sapiens with 6 samples.

Results

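The 45 genes described here encode the machinery that copies the genome and prepares it for copying, from origin recognition to chromatin assembly behind the fork. They were taken by gene symbol from a list of replication and licensing genes, and all 45 were found among the 21151 genes of the count table and among the 16353 genes tested. The cells were human dermal fibroblasts of the established line CCD-1064Sk (CRL-2076 of ATCC), a skin fibroblast line grown in serum-containing IMDM medium. One group carried a short-hairpin RNA directed at ZNF469, a zinc-finger gene (shZNF469, 3 libraries), and the other a control hairpin (shControl, 3 libraries, genotype given as WT). Both groups are thus lines that carry a hairpin. How many hairpins were used, and their sequences, is not given in the sources used here. The replicates are called technical in the series' design, so the p-values below measure spread between 3 libraries a group, which may be technical, and say nothing of separate cultures, hairpins or donors.

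DNA replication starts with licensing. In G1 phase the origin recognition complex (ORC), CDC6 and CDT1 load the ring-shaped MCM2-7 helicase onto DNA, and geminin (GMNN) blocks CDT1 so that no origin is licensed again after it has fired. In S phase CDC45 and the GINS complex join MCM2-7 to form the active helicase, DNA polymerases alpha, delta and epsilon synthesise the strands, PCNA clamps the polymerases to DNA, and CAF-1 and DNMT1 restore nucleosomes and methylation. Many of these genes are transcribed in late G1 and S phase under E2F transcription factors, which bind GC-rich sites beginning with a run of T. Cells that leave the cycle keep little of several licensing proteins.

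The promoters of 9 members are shown first because they carry, at short distance from the start site, the letters by which E2F-regulated replication promoters are recognised. Each line gives the 120 bases before the transcription start, read 5′ to 3′ on the gene's strand, from RefSeq on GRCh38.p14. Capitals mark every stretch equal to TTTCCCGC, TTTGGCGC, TTTCGCGC or TTTGCCGC on either strand. A match on the opposite strand reads as the reverse complement, which in these windows is GCGGGAAA, GCGCCAAA or GCGCGAAA. The windows are chr2:135876444-135876563 (minus strand) for MCM6, chr16:88803669-88803788 (plus) for CDT1, chr1:212035628-212035747 (plus) for DTL, and chr16:85688955-85689074 (minus) for GINS2. UHRF1 is shown at chr19:4909381-4909500 (plus), PCNA at chr20:5126623-5126742 (minus), and RFC3 at chr13:33818029-33818148 (plus). GMNN is shown at chr6:24775293-24775412 (plus) and TIPIN at chr15:66356686-66356805 (minus). The windows of UHRF1, GMNN and TIPIN belong to start sites that lie inside the annotated gene. The promoters at the annotated gene starts of GMNN and TIPIN hold no such stretch. In MCM6 and TIPIN, matches on the 2 strands overlap. GMNN and TIPIN are included because their transcripts did not pass the test, the other 7 because theirs did. The windows were picked after the positions of the matches were known.
MCM6: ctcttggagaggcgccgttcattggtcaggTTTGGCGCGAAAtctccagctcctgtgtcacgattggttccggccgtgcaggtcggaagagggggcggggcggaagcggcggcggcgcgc
CDT1: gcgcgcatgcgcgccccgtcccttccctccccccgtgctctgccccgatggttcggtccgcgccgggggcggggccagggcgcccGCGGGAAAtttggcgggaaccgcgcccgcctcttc
DTL: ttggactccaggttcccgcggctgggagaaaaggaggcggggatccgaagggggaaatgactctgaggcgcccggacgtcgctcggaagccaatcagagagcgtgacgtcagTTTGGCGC
GINS2: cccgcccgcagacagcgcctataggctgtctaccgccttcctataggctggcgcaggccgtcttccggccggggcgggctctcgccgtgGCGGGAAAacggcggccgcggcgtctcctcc
UHRF1: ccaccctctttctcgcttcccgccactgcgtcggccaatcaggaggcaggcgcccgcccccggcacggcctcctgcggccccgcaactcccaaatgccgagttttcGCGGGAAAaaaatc
PCNA: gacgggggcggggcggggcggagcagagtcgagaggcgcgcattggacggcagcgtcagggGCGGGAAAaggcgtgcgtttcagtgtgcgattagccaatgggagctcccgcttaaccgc
RFC3: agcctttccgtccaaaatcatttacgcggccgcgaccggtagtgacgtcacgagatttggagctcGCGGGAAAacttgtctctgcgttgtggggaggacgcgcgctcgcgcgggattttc
GMNN: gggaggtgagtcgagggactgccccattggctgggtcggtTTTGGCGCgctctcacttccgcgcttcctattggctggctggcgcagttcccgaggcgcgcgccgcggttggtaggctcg
TIPIN: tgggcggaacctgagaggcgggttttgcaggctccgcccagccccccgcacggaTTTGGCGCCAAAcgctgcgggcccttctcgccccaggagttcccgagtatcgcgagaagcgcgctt

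Library totals ran from 35417366 to 48298264 counts, and libraries of 1 group differed by 8.01 to 36.4 chi-square units per degree of freedom, above sampling noise. ZNF469 (ENSG00000225614, chr16:88100931-88440753) stood at 39.7, 46.2 and 39.9 CPM (read counts relative to library size, scaled with TMM) in the shControl libraries and at 21.4, 18.3 and 18.5 CPM in the shZNF469 libraries. Its level with the hairpin was 46.2% of control (log2 fold change -1.12, SE 0.09, edgeR quasi-likelihood adjusted p = 0.000873). All 10 fibroblast markers were listed, with a summed TPM (a level corrected for transcript length) of 31167 to 33579 in shControl and 24224 to 25660 in shZNF469 libraries. Of these 10, the collagen genes COL1A1, COL1A2 and COL3A1 fell, VIM rose (edgeR adjusted p = 0.0146) and the other 6 did not pass. Of the markers of other cell types, 1 of 5 for keratinocytes, 1 of 5 for melanocytes, 1 of 4 for endothelium and 2 of 4 for immune cells were in the table. Their summed TPM in shControl and shZNF469 libraries was 24.4 to 28.3 and 18.5 to 18.8 (KRT10), 15.1 to 15.6 and 27.8 to 32.2 (PMEL), 0 to 0.390 and 0 to 0.546 (VWF), and 172 to 195 and 204 to 245 (CD68 and CD14). The other markers of these types were looked up by symbol and were not listed in the table, so no level is given for them.

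The replication genes were lower as a group in the shZNF469 libraries. Of the 45 members, 35 fell, 0 rose and 10 did not pass (edgeR quasi-likelihood F-test, two-sided, 3 against 3 libraries, Benjamini-Hochberg adjustment over all 16353 genes, adjusted p under 0.05). Over all genes tested, 5.34% fell and 4.56% rose. Among the members 77.8% fell, but the members were chosen with earlier results of these data known. Of 32 other replication genes, described further below, 8 fell (25.0%). A fall of 2-fold or more was found for 17 members, compared with 0.972% of all genes. In 43 members every shZNF469 library lay below every shControl library, which held for 15.7% of all genes; the exceptions were GMNN and TIPIN. The median log2 fold change (shZNF469 minus shControl) was -0.87 for the members, a level 1.82-fold lower, and 0.00 for all genes. Together the members took 0.0798% ± 0.000903 of all counts in shControl and 0.0508% ± 0.000791 in shZNF469 libraries (SD, n = 3). Their summed TPM was 690, 664 and 633 in shControl, against 410, 436 and 404 in shZNF469 libraries. In bulk RNA, fewer cells in S phase and less replication RNA per cell cannot be told apart.

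Markers of dividing cells moved in the same direction. MKI67, a nuclear protein of cycling cells, was 33.2 CPM in shControl and 14.8 CPM in shZNF469 libraries (log2 fold change -1.17, edgeR adjusted p = 0.000159). The mitotic cyclin CCNB1 was 36.1 and 18.1 CPM (-0.997, edgeR adjusted p = 0.00108), and the S and G2 phase cyclin CCNA2 was 22.3 and 9.92 CPM (-1.17, edgeR adjusted p = 0.000461). With TOP2A, 4 of 4 such markers fell, and their summed TPM was 96.8 to 101 in shControl and 44.7 to 50.8 in shZNF469 libraries. Their part in the falls of the replication genes was not tested.

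**Figure D1:**
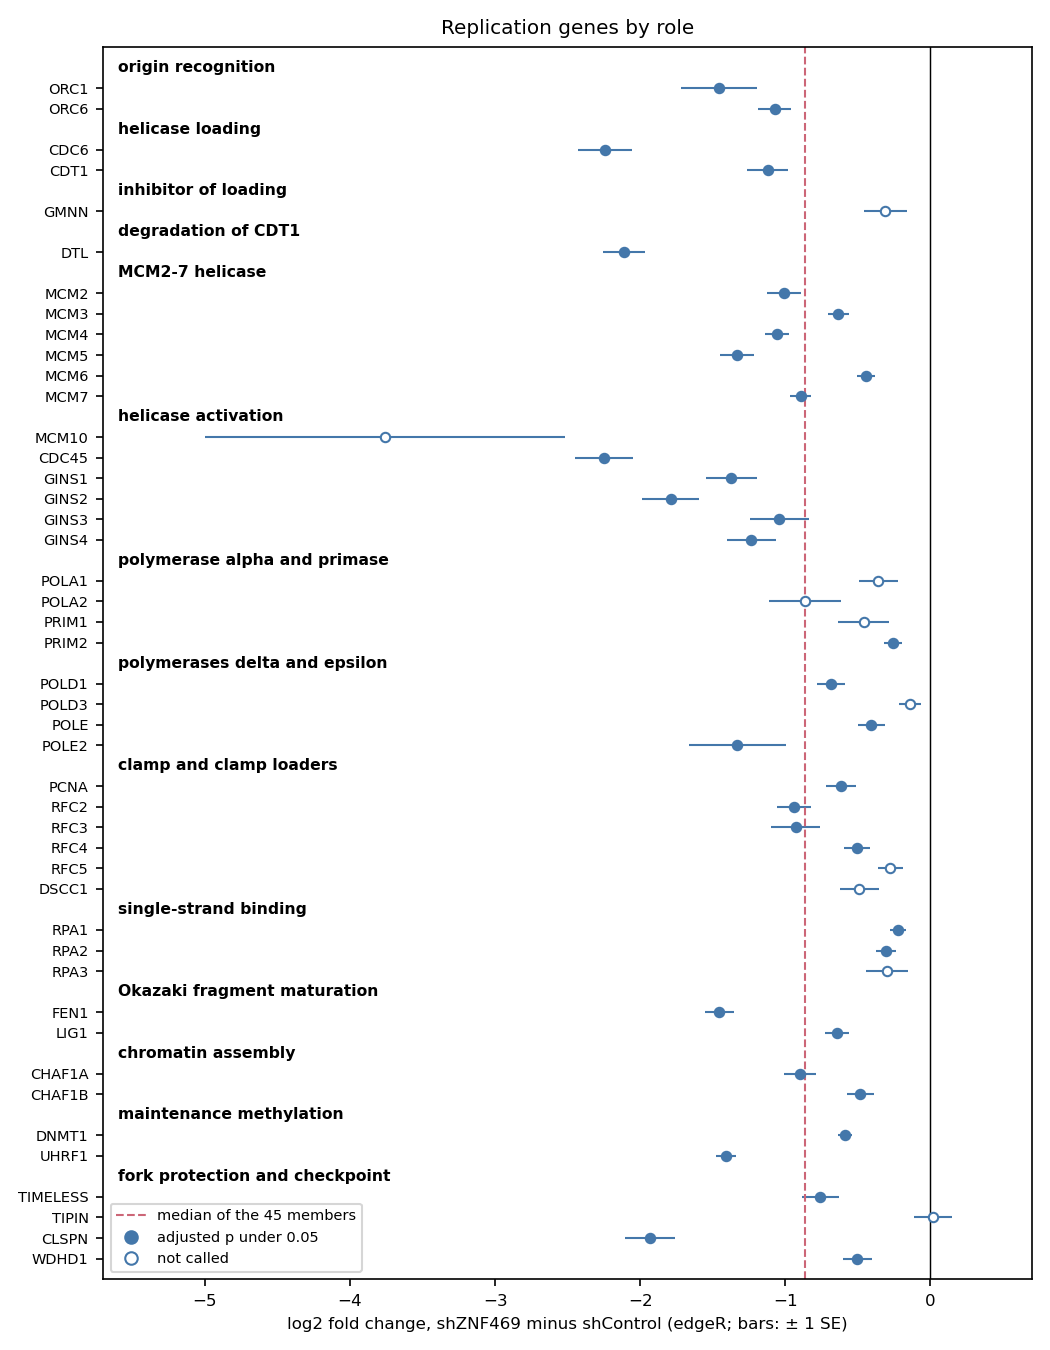
Log2 fold change (shZNF469 minus shControl, horizontal axis) of the 45 members, ordered by role (vertical axis), filled where the adjusted p was under 0.05. Bars give the standard error of the log2 fold change, derived from the F-test. Values run from -3.76 for MCM10 to 0.02 for TIPIN, and 44 of 45 lie below 0.

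The calls rested on the libraries to different degrees. Across the 17 other settings tried, 21 of the 35 falls passed in every one and 14 were lost in at least 1. Leaving out shControl library 2 left 23 falls, the lowest count. Without it ORC1, GINS3, RFC3, RFC4, POLE, POLE2, PRIM2, CHAF1B, TIMELESS, RPA1, RPA2 and WDHD1 no longer passed (edgeR adjusted p 0.0506 to 0.174). Without shControl library 1, 11 of the 35 calls were lost, among them PCNA (edgeR adjusted p up to 0.167 for these 11). Without shControl library 3, 10 were lost (up to 0.138), and without shZNF469 library 1, 11 (up to 0.132). Without shZNF469 library 2 the lost calls were POLE, POLE2, PRIM2 and RPA2 (up to 0.0948), and without shZNF469 library 3 they were 8 (up to 0.0945). GINS4 was lost in 1 setting, log2(TPM + 0.1) with limma. The direction of every called member stayed downward in all of these settings, and between 44 and 45 of the 45 members had a negative log2 fold change in each.

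Origin recognition split between its subunits. ORC1, an ATP-binding subunit whose protein comes and goes with the cell cycle, and ORC6, the smallest subunit, both fell by over 2-fold. ORC1 (ENSG00000085840, chr1:52372829-52409503) was at 2.55, 2.29 and 2.01 CPM in shControl and 0.857, 0.726 and 0.911 CPM in shZNF469 libraries (log2 fold change -1.46, SE 0.26, edgeR adjusted p = 0.0159). ORC6 (ENSG00000091651, chr16:46689659-46698394) was at 5.89, 5.62 and 6.04 CPM and at 2.78, 2.74 and 2.81 CPM (-1.07, SE 0.11, edgeR adjusted p = 0.00219). The shZNF469 libraries of ORC6 were nearly equal. The remaining subunits, ORC2 to ORC5, form the body of the complex and are not members; 0 of these 4 fell or rose. ORC2 was at 15.02, 15.8 and 13.02 CPM and at 14.5, 16.6 and 13.6 CPM (log2 fold change 0.03, edgeR adjusted p = 0.912), with overlapping groups. ORC3 changed from 32.7 to 33.3 CPM (0.02, adjusted p = 0.902), a sign that turned under 4 of the other settings. ORC4 and ORC5 had log2 fold changes of -0.15 and -0.18 (adjusted p = 0.529 and 0.268).

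Helicase loading showed some of the largest falls. CDC6, the ATPase that recruits MCM2-7 to ORC, and CDT1, its partner in loading, fell, whereas the CDT1 inhibitor GMNN did not pass. CDC6 (ENSG00000094804, chr17:40287879-40304657) was at 6.46, 8.21 and 9.89 CPM in the shControl libraries and at 1.56, 1.76 and 1.87 CPM in the shZNF469 libraries. That is a level 4.73-fold lower (log2 fold change -2.24, SE 0.18, edgeR adjusted p = 0.000873), and the shControl libraries spread more (SD 1.72) than the shZNF469 libraries (SD 0.155). CDT1 (ENSG00000167513, chr16:88803789-88809258) was at 5.08, 4.27 and 4.54 CPM and at 2.12, 2.16 and 2.09 CPM, 2.18-fold lower (-1.12, SE 0.14, edgeR adjusted p = 0.00395). The shZNF469 libraries of CDT1 were nearly equal. GMNN was at 8.90, 7.49 and 9.41 CPM and at 5.74, 7.14 and 7.90 CPM, with groups that overlap (-0.31, SE 0.15, edgeR adjusted p = 0.257). The ratio of CDT1 to GMNN counts within a library was 0.571, 0.569 and 0.483 in shControl and 0.369, 0.302 and 0.265 in shZNF469 libraries. DTL, the receptor through which the CRL4 ubiquitin ligase destroys CDT1 at replicating chromatin, fell as well. DTL (ENSG00000143476, chr1:212035748-212105013) was at 9.49, 10.04 and 7.73 CPM and at 2.01, 2.34 and 1.94 CPM, 4.32-fold lower (-2.11, SE 0.15, edgeR adjusted p = 0.00056).

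All 6 subunits of the MCM2-7 helicase fell; their log2 fold changes ran from -1.33 to -0.44 (median -0.95). MCM5 (ENSG00000100297, chr22:35400140-35455031), which sits at the gate where the ring opens, was at 23.8, 22.5 and 24.6 CPM in shControl and 10.9, 7.93 and 9.30 CPM in shZNF469 libraries. Its level was 2.52-fold lower (-1.33, SE 0.12, edgeR adjusted p = 0.00111), the largest change of the 6. MCM6 (ENSG00000076003, chr2:135839626-135876443), whose promoter is printed above, was at 51.2, 53.7 and 51.9 CPM and at 39.9, 39.5 and 35.9 CPM. It was 1.36-fold lower (-0.44, SE 0.06, edgeR adjusted p = 0.00531), the smallest change of the 6, and its groups do not overlap. MCM2, the other side of that gate and a histone chaperone, was at 26.8, 27.7 and 25.4 CPM and at 15.9, 12.1 and 11.7 CPM, 2.01-fold lower. MCM4 was at 20.7, 22.3 and 21.0 CPM and at 9.94, 11.1 and 9.72 CPM, 2.08-fold lower. These 2 subunits changed by similar amounts. MCM3 was at 35.4, 38.7 and 40.8 CPM and at 24.1, 24.0 and 25.9 CPM, 1.55-fold lower. MCM7 was at 44.2, 45.6 and 48.4 CPM and at 26.2, 22.9 and 25.3 CPM, 1.86-fold lower. The edgeR adjusted p was 0.00342 for MCM2, 0.000675 for MCM4, 0.00267 for MCM3 and 0.000815 for MCM7.

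The unequal falls changed the proportions of the 6 MCM transcripts. The ring holds the 6 MCM proteins in equal number, but protein was not measured here. On the length-scaled TPM level, the control means were 38.2 for MCM7, 32.5 for MCM6, 29.3 for MCM3, 18.2 for MCM2, 15.8 for MCM5 and 12.3 for MCM4. In shZNF469 libraries they were 23.6 for MCM6, 19.9 for MCM7, 18.8 for MCM3, 8.87 for MCM2, 6.05 for MCM5 and 5.85 for MCM4. The most abundant subunit was MCM7 in every shControl library and MCM6 in every shZNF469 library. The highest subunit level was 2.83 to 3.33 times the lowest in shControl and 4.05 to 4.77 times the lowest in shZNF469 libraries. Summed over the 6, the TPM level was 146, 152 and 141 in shControl and 86.5, 86.3 and 76.7 in shZNF469 libraries. These levels were not tested.

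**Figure D2:**
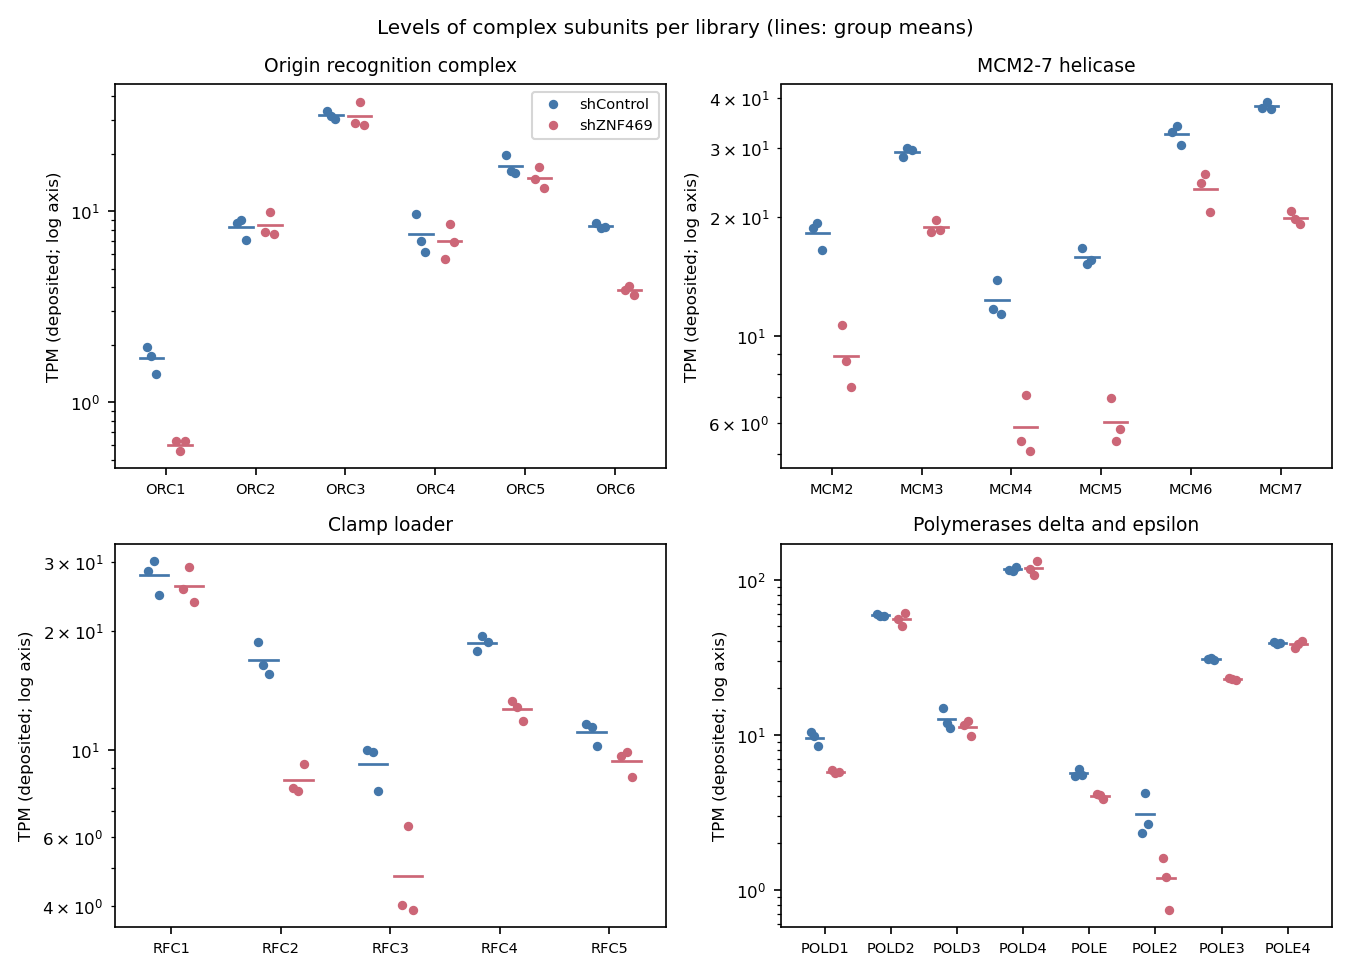
Deposited TPM (log axis) of the subunits of the replication complexes in each of the 6 libraries, points coloured by group. MCM7 is the highest of MCM2-7 in shControl libraries and MCM6 in shZNF469 libraries; ORC1 is the lowest ORC subunit in both.

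Helicase activation had the lowest median of the roles with at least 3 members, a log2 fold change of -1.58, and 5 of its 6 members fell by 2-fold or more. CDC45 (ENSG00000093009), which turns the loaded MCM ring into the moving helicase, was at 4.46, 4.27 and 5.40 CPM in shControl and 0.943, 0.847 and 1.18 CPM in shZNF469 libraries. It was 4.75-fold lower (-2.25, SE 0.20, edgeR adjusted p = 0.0011). The 4 GINS subunits form 1 tetramer that holds CDC45 to the ring, and all 4 fell. GINS2 was at 3.17, 3.63 and 3.66 CPM and at 1.07, 0.868 and 1.08 CPM, 3.46-fold lower (-1.79, SE 0.20, edgeR adjusted p = 0.00259). GINS1 was at 8.39, 10.3 and 6.92 CPM and at 3.64, 2.80 and 3.45 CPM, 2.59-fold lower (-1.37, SE 0.18, edgeR adjusted p = 0.00453). Both were separated between the groups in every library. GINS4 was at 10.1, 8.30 and 10.4 CPM and at 3.19, 4.62 and 4.41 CPM, 2.35-fold lower (-1.23, SE 0.17, edgeR adjusted p = 0.0057). GINS3 was at 3.65, 3.23 and 3.07 CPM and at 1.84, 1.29 and 1.70 CPM, 2.06-fold lower (-1.04, SE 0.20, edgeR adjusted p = 0.0212). The GINS2 to GINS3 count ratio was 1.06 ± 0.170 in shControl and 0.630 ± 0.0457 in shZNF469 libraries (SD, n = 3).

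MCM10, which helps the assembled helicase to start, was at the edge of detection in the shZNF469 libraries. The shControl libraries held 110, 158 and 125 counts of it, the shZNF469 libraries 33, 0 and 0. The fitted log2 fold change of -3.76 (SE 1.24) did not pass (edgeR adjusted p = 0.11), and no fold is given since 2 libraries are listed at 0. It passed under 4 of the 17 other settings (adjusted p 0.00321 to 0.243 over the 17), among them limma-voom (0.0390) and the edgeR fit without shZNF469 library 1 (0.00495). In that library the authors' TPM of MCM10 was 0.353, beside a lowest listed TPM above 0 of 0.333. In shZNF469 libraries 2 and 3 the lowest listed TPM above 0 was 0.334 and 0.360. A listed 0 there may thus stand for a lower level and not for absence. The fit without shZNF469 library 1 compares the shControl libraries with these zeros alone.

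Among the subunits that prime the strands, no fall of 2-fold was called. Polymerase alpha-primase makes the RNA-DNA primers, and 1 of its 4 subunits fell. PRIM2, the large primase subunit, was at 38.1, 33.9 and 36.5 CPM in shControl and 30.2, 29.4 and 31.1 CPM in shZNF469 libraries, 1.196-fold lower (-0.26, SE 0.06, edgeR adjusted p = 0.0449). Its call was lost in 10 of the 17 other settings, and parts of PRIM2 have near-identical copies in the genome, so that its counts are uncertain. POLA1, the catalytic subunit, was at 10.05, 10.2 and 10.6 CPM and at 7.37, 9.60 and 7.01 CPM (-0.36, SE 0.13, edgeR adjusted p = 0.15). PRIM1, the catalytic primase, was at 4.38, 3.86 and 2.99 CPM and at 2.68, 2.78 and 2.71 CPM (-0.46, SE 0.17, edgeR adjusted p = 0.158). In POLA1 and PRIM1 the groups do not overlap, but the closest libraries lie near each other. POLA2, the accessory subunit, was at 11.2, 6.85 and 6.42 CPM and at 3.83, 5.51 and 4.04 CPM (-0.87, SE 0.25, edgeR adjusted p = 0.0723). Its shControl library 1 stood above the other 2, and 2012 of its exon bases are shared with AP000944.2 on the same strand. Under DESeq2, POLA1 and POLA2 passed (adjusted p = 0.0458 and 0.00122).

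Of the polymerases that copy the bulk of the genome, the catalytic subunits fell. POLD1, the catalytic subunit of the lagging-strand polymerase delta, was at 14.96, 13.9 and 13.1 CPM and at 8.87, 8.01 and 9.25 CPM, 1.61-fold lower (-0.68, SE 0.10, edgeR adjusted p = 0.00638). POLD3, an accessory subunit, was at 20.8, 18.1 and 18.9 CPM and at 17.2, 18.0 and 17.3 CPM (-0.14, SE 0.07, edgeR adjusted p = 0.312). POLD2 and POLD4, which are not members, had log2 fold changes of -0.02 and 0.11 (edgeR adjusted p = 0.928 and 0.649). Thus 1 of the 4 delta subunits fell. POLE, the catalytic subunit of the leading-strand polymerase epsilon, was at 16.7, 19.3 and 16.1 CPM and at 13.8, 12.3 and 13.2 CPM, 1.33-fold lower (-0.41, SE 0.09, edgeR adjusted p = 0.0365). POLE2, its second subunit, was at 1.74, 2.80 and 2.06 CPM and at 1.11, 0.888 and 0.615 CPM, 2.52-fold lower (-1.33, SE 0.34, edgeR adjusted p = 0.0496). The POLE2 call lay just under the threshold and was lost in 13 of the 17 other settings, that of POLE in 9. POLE2 was also the least abundant epsilon subunit, at 3.07 TPM in shControl and 1.18 TPM in shZNF469 libraries. Of the histone-fold subunits, POLE3 fell (-0.44, edgeR adjusted p = 0.011), while POLE4 had a log2 fold change of 0.02 (adjusted p = 0.934), a sign that turned under 4 of the other settings.

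PCNA, the sliding clamp and a classical marker of S phase, was at 66.0, 56.8 and 64.6 CPM in shControl and 38.1, 37.1 and 46.9 CPM in shZNF469 libraries. PCNA (ENSG00000132646, chr20:5114953-5126622) fell 1.54-fold (-0.62, SE 0.10, edgeR adjusted p = 0.0125), from 112 to 71.7 TPM. The clamp is loaded by replication factor C, in which RFC1 is the large subunit and RFC2 to RFC5 are small subunits shared with other loaders. RFC2 was at 12.4, 11.5 and 11.0 CPM and at 5.85, 5.39 and 6.92 CPM, 1.92-fold lower (-0.94, SE 0.12, edgeR adjusted p = 0.00426). RFC3 was at 9.38, 9.51 and 8.05 CPM and at 4.05, 5.89 and 4.18 CPM, 1.90-fold lower (-0.93, SE 0.17, edgeR adjusted p = 0.0165). RFC2 and RFC3 changed by similar amounts. RFC4 was at 10.02, 10.6 and 11.0 CPM and at 7.43, 7.14 and 7.68 CPM, 1.42-fold lower (-0.51, SE 0.09, edgeR adjusted p = 0.0146). RFC5 was at 9.85, 9.87 and 9.44 CPM and at 7.97, 8.29 and 7.83 CPM (-0.28, SE 0.08, edgeR adjusted p = 0.0895). The groups of RFC5 were separated and narrow, but the change did not pass in edgeR. RFC1, not a member, was at 57.9 and 55.2 CPM (-0.07, edgeR adjusted p = 0.592). On the TPM level RFC1 was the most abundant subunit and RFC3 the least in every library, 2.84 to 3.15 times apart in shControl and 4.53 to 6.36 times apart in shZNF469 libraries. DSCC1, a subunit of the alternative CTF18 loader that acts in sister chromatid cohesion, was at 3.68, 3.48 and 3.58 CPM and at 2.59, 2.64 and 2.41 CPM (-0.49, SE 0.14, edgeR adjusted p = 0.0684). Of the 17 other settings, RFC5 and DSCC1 passed in 1, the DESeq2 Wald test (adjusted p = 0.0498 and 0.0399).

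Replication protein A, the trimer that coats exposed strands, had the median closest to 0 among roles with at least 3 members, a log2 fold change of -0.30. RPA1, its large DNA-binding subunit, was at 77.1, 79.5 and 82.9 CPM and at 69.0, 69.4 and 66.8 CPM, 1.17-fold lower (-0.22, SE 0.05, edgeR adjusted p = 0.0406). RPA2 was at 20.9, 20.1 and 22.2 CPM and at 16.4, 16.9 and 17.7 CPM, 1.24-fold lower (-0.31, SE 0.07, edgeR adjusted p = 0.0338). RPA3 was at 6.91, 7.26 and 7.97 CPM and at 4.84, 6.52 and 6.64 CPM (-0.30, SE 0.15, edgeR adjusted p = 0.268). The RPA1 and RPA2 calls were lost in 9 and 8 of the 17 other settings.

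Both members that finish the lagging strand fell, by different amounts. FEN1 (ENSG00000168496, chr11:61792911-61797238), the nuclease that trims the flaps between Okazaki fragments, was at 17.7, 19.2 and 15.99 CPM in shControl and 6.19, 6.17 and 6.94 CPM in shZNF469 libraries. It was 2.74-fold lower (-1.45, SE 0.10, edgeR adjusted p = 0.00056). LIG1, the ligase that seals the fragments, was at 12.996, 12.1 and 12.5 CPM and at 7.82, 8.07 and 8.19 CPM, 1.56-fold lower (-0.64, SE 0.08, edgeR adjusted p = 0.00428). The FEN1 to LIG1 count ratio was 1.41 ± 0.161 in shControl and 0.801 ± 0.0417 in shZNF469 libraries (SD, n = 3). FEN1 shares 49 exon bases with FADS2 on its strand and 166 with TMEM258 on the other, and FADS2 fell too (-0.57, edgeR adjusted p = 0.00141).

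The members that rebuild chromatin behind the fork fell as well. CAF-1 places new histones, and its subunits CHAF1A and CHAF1B were 1.86-fold and 1.40-fold lower. CHAF1A was at 14.5, 14.1 and 15.7 CPM and at 8.33, 8.57 and 6.82 CPM (-0.90, SE 0.11, edgeR adjusted p = 0.00395), and CHAF1B at 10.6, 9.66 and 9.46 CPM and at 6.94, 7.26 and 7.04 CPM (-0.48, SE 0.09, edgeR adjusted p = 0.0199). UHRF1 recognises hemimethylated DNA and brings in DNMT1, the maintenance methyltransferase. UHRF1 (ENSG00000276043, chr19:4903080-4962154) was at 26.8, 28.5 and 28.0 CPM in shControl and 9.85, 10.8 and 10.9 CPM in shZNF469 libraries, 2.65-fold lower (-1.41, SE 0.07, edgeR adjusted p = 0.000159). DNMT1 was at 72.7, 73.8 and 72.4 CPM and at 49.1, 47.5 and 48.9 CPM, 1.504-fold lower (-0.59, SE 0.05, edgeR adjusted p = 0.000823). In both genes the groups lay far apart compared with the spread within them. The UHRF1 to DNMT1 count ratio was 0.381 ± 0.0105 in shControl and 0.216 ± 0.0139 in shZNF469 libraries (SD, n = 3).

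Of the proteins that stabilise the fork and signal from it, 3 of 4 fell. CLSPN (ENSG00000092853), claspin, the adaptor through which ATR activates CHK1, was at 6.93, 8.26 and 7.65 CPM and at 1.61, 2.40 and 1.97 CPM, 3.82-fold lower (-1.93, SE 0.17, edgeR adjusted p = 0.00111). TIMELESS, the core of the fork protection complex, was at 12.9, 15.3 and 12.9 CPM and at 9.10, 8.19 and 6.99 CPM, 1.69-fold lower (-0.76, SE 0.13, edgeR adjusted p = 0.0125). WDHD1 (AND-1), which links polymerase alpha to the helicase, was at 13.4, 13.6 and 12.7 CPM and at 8.91, 10.5 and 8.61 CPM, 1.42-fold lower (-0.51, SE 0.10, edgeR adjusted p = 0.0232). TIPIN, the partner with which TIMELESS forms a dimer, was the exception. It was at 4.10, 3.59 and 3.96 CPM in shControl and 4.07, 3.59 and 4.11 CPM in shZNF469 libraries (0.02, SE 0.13, edgeR adjusted p = 0.961). TIPIN shares 579 exon bases with the pseudogene RPL9P25, so that its counts are uncertain. The TIPIN to TIMELESS count ratio was 0.287 ± 0.0461 in shControl and 0.491 ± 0.0840 in shZNF469 libraries (SD, n = 3).

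**Figure D3:**
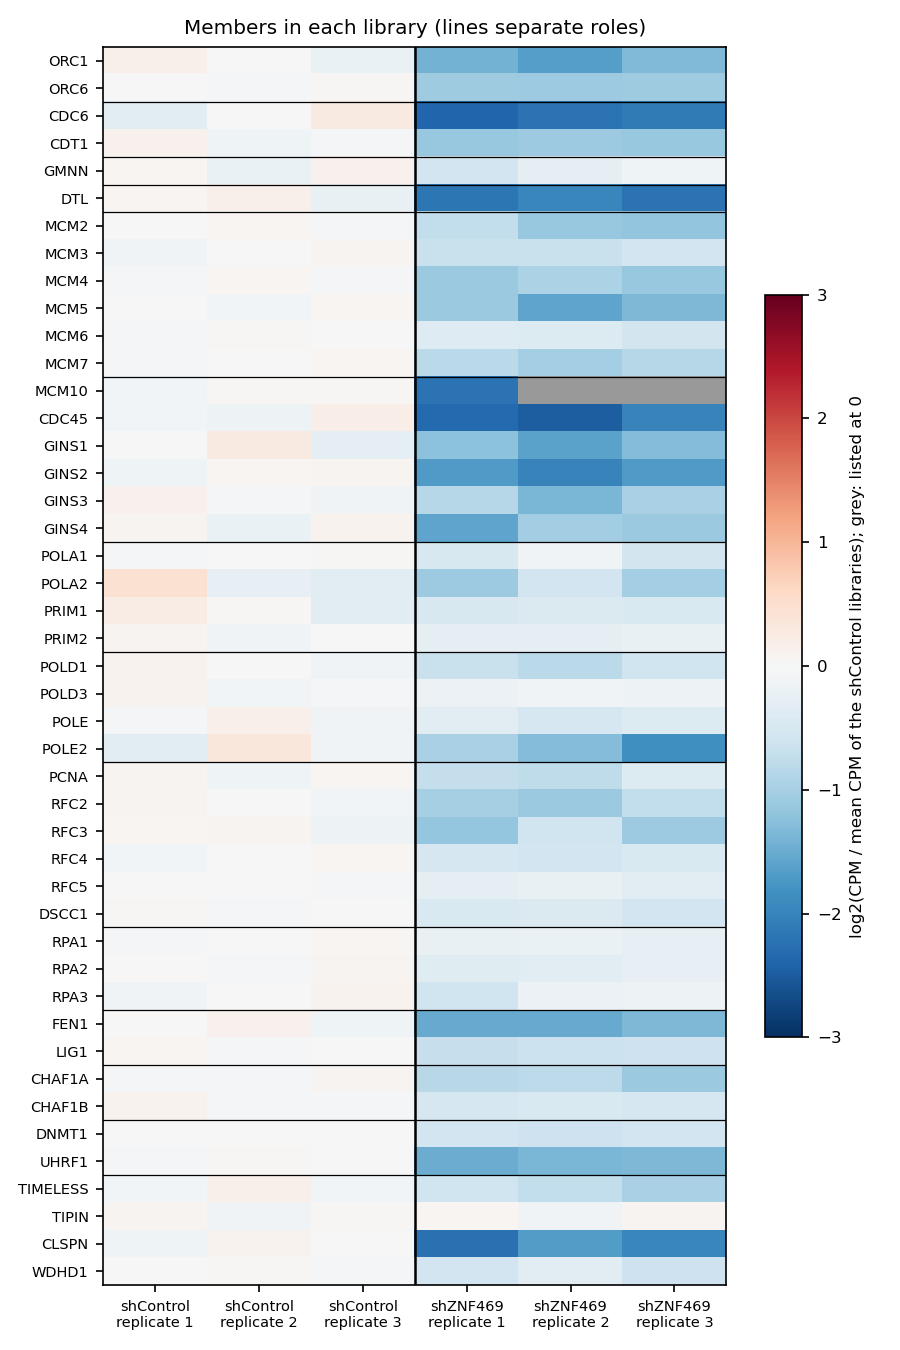
Log2 CPM of each member in each of the 6 libraries relative to its shControl mean, as a colour scale from -3 to 3, with members in rows by role and grey where a count is listed at 0 (MCM10). The 3 shZNF469 columns are lower for all members but GMNN and TIPIN, which overlap between groups.

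Partner genes within 1 library can be compared without any scaling between libraries. Of 13 count ratios between partners, 11 did not overlap between the groups, each with p = 0.1 in an exact two-sided permutation test, the smallest p that 3 against 3 libraries allow (0.118 after adjustment over the 13). The design thus cannot reach 0.05 for any of them. Ratios of other gene pairs were not computed, so the count of 11 has no background share beside it. Each ratio also restates the changes of its 2 genes given above. The ratio was lower in shZNF469 for CDT1 to GMNN, ORC1 to ORC2, ORC6 to ORC2, GINS2 to GINS3, POLE2 to POLE, RFC3 to RFC1, UHRF1 to DNMT1 and FEN1 to LIG1. On the log2 scale ORC1 to ORC2 had the largest difference (-1.49), from 0.156 ± 0.0126 to 0.0565 ± 0.0118, and ORC6 to ORC2 went from 0.404 to 0.188. RFC3 to RFC1 went from 0.155 to 0.0849 and POLE2 to POLE from 0.126 to 0.0665. It was higher for TIPIN to TIMELESS, for POLD3 to POLD1 (1.38 to 2.02) and for CHAF1B to CHAF1A (0.673 to 0.904). In PRIM1 to POLA1 (0.366 and 0.346, exact permutation p = 0.8) and RPA3 to RPA1 (0.0923 and 0.0878, exact permutation p = 0.9) the groups overlapped. The MCM10 to MCM2 ratio could not be given because MCM10 is listed at 0 in 2 libraries.

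**Figure D4:**
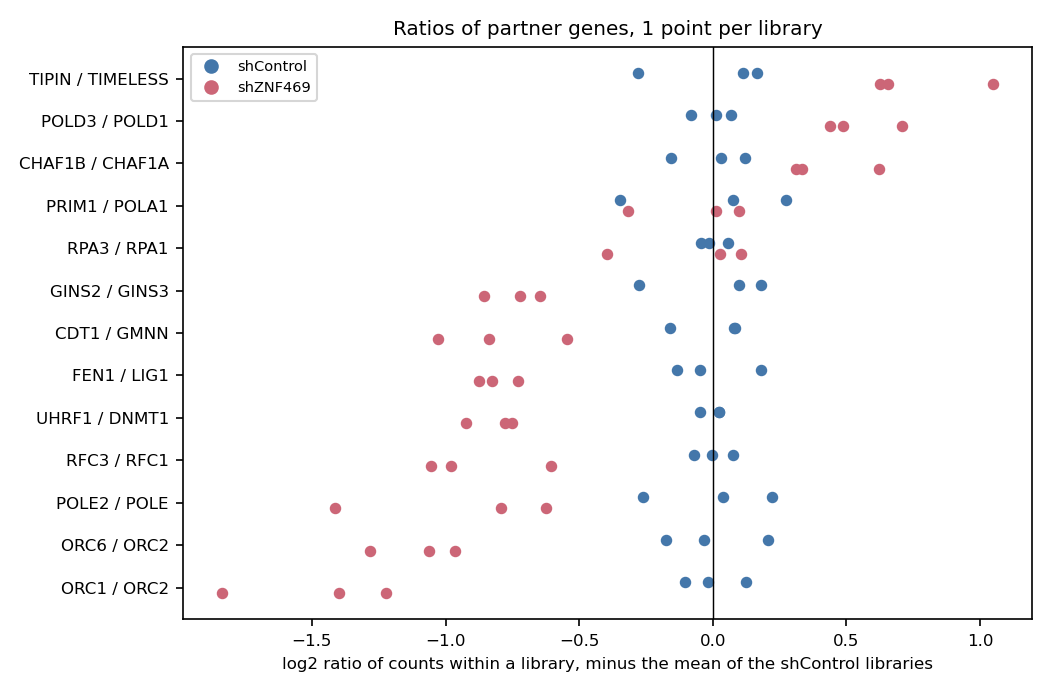
Log2 ratio of the counts of 2 partner genes in each library, minus the mean of the shControl libraries (horizontal axis). The shControl and shZNF469 libraries are separate points for each pair. The groups do not overlap in 11 of 13 pairs, with no background share from other gene pairs. TIPIN:TIMELESS, POLD3:POLD1 and CHAF1B:CHAF1A are higher in shZNF469 libraries and the other 8 are lower.

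The members' changes are given here on either side of a control mean of 10 CPM; the difference between the sides was not tested. Of the 22 members with a control mean under 10 CPM, 12 fell by 2-fold or more and the median log2 fold change was -1.10 (range -3.76, for the uncalled MCM10, to 0.02). Of the 23 at 10 CPM or more, 5 did (MCM2, MCM4, MCM5, FEN1 and UHRF1) and the median was -0.63 (range -1.45 to -0.14). In all, 14 of the 22 and 21 of the 23 fell. The strand setting of the counting is not given in the sources used here, and 20 of the 45 members share exon bases with another annotated gene (GENCODE 29), 14 of them with a gene on the opposite strand. If the counting ignored strand, reads from opposite-strand overlaps would be counted together, and the counts of these members are uncertain to that extent. MCM7 shares 392 bases with AP4M1 and MCM2 1113 bases with AC023593.1, both on the opposite strand.

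Some replication genes outside the member list fell as well. Of 32 such genes, all tested, 8 fell, 0 rose and 24 did not pass (edgeR, adjusted p under 0.05), or 25.0% beside the 5.34% of all genes, and their median log2 fold change was -0.18. In 18 of the 32, or 56.3%, every shZNF469 library lay below every shControl library, which held for 15.7% of all genes. The difference between this list and the members was not tested. ASF1B, a histone chaperone of dividing cells that hands histones to CAF-1, showed the largest change, from 7.74 ± 0.819 to 2.20 ± 0.337 CPM (SD, n = 3), 3.52-fold lower (-1.81, SE 0.16, edgeR adjusted p = 0.00106). TOP2A, the topoisomerase that untangles sister chromatids, went from 78.4 to 40.6 CPM (-0.95, edgeR adjusted p = 0.000744). The helicase RECQL4 (-1.07, edgeR adjusted p = 0.00416), the PCNA unloader ATAD5 (-1.07, adjusted p = 0.0288), the nuclease subunit RNASEH2A (-0.86, adjusted p = 0.0243) and the MCM paralog MCM8 (-0.65, adjusted p = 0.0204) also fell. POLE3 and TOPBP1 (-0.29, adjusted p = 0.0343) complete the 8. Of the 17 other settings, the call was lost in 8 for ATAD5, 8 for TOPBP1, 7 for MCM8, 5 for RNASEH2A, 2 for RECQL4 and 1 for POLE3. Without shZNF469 library 1, 3 of the 32 fell, and without the other libraries 4 to 7. The S phase kinase CDC7 went from 3.32 to 2.498 CPM and its activator DBF4 from 9.01 to 6.95 CPM, neither of which passed (edgeR adjusted p = 0.202 and 0.0934).

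The E2F-type letters printed above were more frequent in the members' promoters than in promoters at large. RefSeq promoters of 250 bases before to 50 bases after the start were found for 38 of the 45 members, 49 promoters in all; MCM4, MCM5, GINS4, POLD3, DSCC1, RPA2 and RPA3 were not matched. An 8-letter match on either strand lay in 22 of the 38 members (57.9%) and in 23 of the 49 promoters (46.9%). By promoter, the share was 3.31% of all 35116 promoters of the table and 4.89% of the promoters of protein-coding genes tested here. Of the other replication genes, 6 of 27 had a match (22.2%). With the shorter letters TTCCCGC or TTGGCGC, which overlap the longer ones, 27 of 38 members (71.1%) had a match, beside 11.0% of all genes with a promoter in the table and 17.9% of the protein-coding genes tested here. The CCAAT box lay in 28 of the 49 member promoters (57.1%) and in 34.6% of all. The CHR letters TTTGAA or TTCGAA, found at late cell cycle genes, lay in 1 of the 49 (2.04%), that of MCM6, and in 16.4% of all. These shares are descriptions, and neither binding nor promoter activity was measured.

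**Figure D5:**
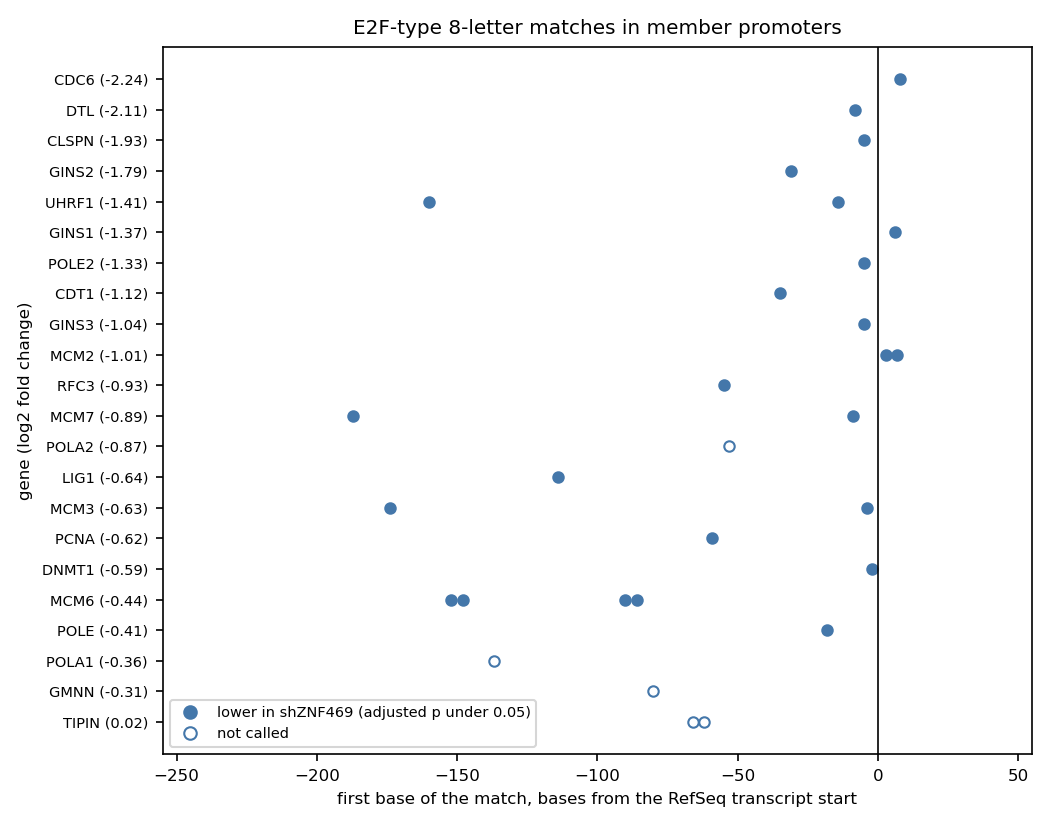
Position of each 8-letter E2F-type match in the members' promoters, in bases from the transcription start (horizontal axis, 0 at the start), with members in rows. Of 30 matches, 26 lie before the start and 19 of them within 100 bases of it. Overlapping matches on opposite strands, in MCM6, MCM2 and TIPIN, count separately. The matches of UHRF1 come from different promoters of the gene.

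Members fell both with and without the 8-letter match. Of the 22 members with an 8-letter match, 18 fell (median log2 fold change -0.91), and of the 16 without one, 13 fell (median -0.72). For ORC1 and PRIM2, both among the 16, only start sites inside the gene were searched. A match at their annotated gene starts is thus not excluded. CDC45, ORC6 and FEN1 are among the 16 and have no match of the shorter letters either. The other genes of the 16 include 8 with a match of the shorter letters, which are ORC1, RFC2, RFC4, PRIM1, CHAF1A, CHAF1B, RPA1 and WDHD1. GMNN and TIPIN, which overlap between groups, carry a match only at a start site inside the gene. Their promoters at the annotated gene start have none. The matches of UHRF1, which fell 2.65-fold, also lie only at start sites inside the gene. No promoter at the annotated gene start of UHRF1 was found. POLA1 and POLA2, which were not called, carry a match as well. Among all protein-coding genes tested with a matched promoter, 77 of 700 with a match fell (11.0%) and 593 of 9769 without one fell (6.07%). No test was made of these shares.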

How the data were processed

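RNA sequencing of 3 shControl and 3 shZNF469 libraries was analysed. Per the labels' protocols, column-purified total RNA went into NEBNext Ultra RNA libraries. The submitters' processing notes name HISAT2, StringTie and the build GRCh38.p14. Tool versions, annotation release and strand setting were not given in the sources used here. The table deposited by the authors gives, per the file headers, raw counts per gene for each library. It also gives the TPM computed by the authors, used here for comparing levels between genes and for 2 alternatives. The counts were tested with edgeR 4.0.16 in R 4.3.3: filterByExpr (minimum count 10), TMM scaling, and the two-sided quasi-likelihood F-test with no covariate over 16353 genes, with Benjamini-Hochberg adjustment and a threshold of 0.05. The SE of a log2 fold change was derived from this test, as its absolute value divided by the square root of F. For 58 symbols listed more than once, the entry with most reads was taken, and the 4195 genes without a symbol were filtered and fitted like the others. Alternatives were DESeq2 1.42.0, limma 3.58.1 (voom, and log2(TPM + 1) and log2(TPM + 0.1)), other scalings and filters, a replicate block, and leaving out each library. Every member is named. Of the other replication genes, the rule named the 6 with the lowest p, ORC2 to ORC5 and genes of the ratios and levels; ATAD5, TOPBP1, CDC7, DBF4, CHTF8 and RIF1 were named after their values were seen. Members and lists were chosen with earlier results of these data known. Gene coordinates and promoters come from RefSeq (GRCh38.p14), exon overlaps from GENCODE 29. Depth limits precision most for members near 1 CPM.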

Additional observations from a re-analysis of the deposited data

How the results depend on the processing

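In each of the 17 alternatives 0 members and 0 other replication genes rose, and ZNF469 was lower and passed. The number of members that fell was 35 with edgeR, 39 with DESeq2, 28 with log2(TPM + 1) and 26 with log2(TPM + 0.1), and 23 to 32 when 1 library was left out (23 without shControl replicate 2). The other replication genes that fell numbered 8 with edgeR, 14 with DESeq2, 4 with log2(TPM + 1), 4 with log2(TPM + 0.1), and 3 to 7 with 1 library left out. Over all genes, 874 fell and 745 rose with edgeR, 1624 and 1622 with DESeq2, 526 and 233 with log2(TPM + 1), 462 and 191 with log2(TPM + 0.1), and 333 to 854 and 204 to 769 with 1 library left out. Leaving out a library means fewer samples, and the cause of the other differences was not tested.

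The replicate numbers did not pair the libraries (correlations of same-numbered deviations -0.02, 0.08 and 0.03). With the replicate number as a block, 29 members fell and 0 rose, and 7 of the other replication genes fell. ORC1, POLE, POLE2, PRIM2, CHAF1B and RPA1 did not pass there (adjusted p 0.0523 to 0.0948).

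Signs turned for 7 genes with changes close to 0. With 1 library left out, the log2 fold change ran from -0.031 to 0.082 for TIPIN, -0.051 to 0.097 for ORC2, -0.056 to 0.078 for ORC3, -0.13 to 0.088 for POLD2, -0.069 to 0.067 for POLE4 and -0.081 to 0.081 for RIF1. With TPM + 1 and TPM + 0.1 it was -0.024 and -0.025 for ORC3, -0.023 and -0.024 for POLE4, and -0.0036 and -0.0044 for CHTF8. The log2 difference of the PRIM1 to POLA1 ratio was -0.07 in counts and 0.11 in TPM. The median log2 fold change of the members lay between -0.89 and -0.73 over all settings.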
